A study of Sus scrofa with 2 samples.

Results

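Immediate early gene high cells were the cells of a culture of porcine adipose-derived stem cells (ADSCs, progenitor cells with the look of fibroblasts, grown from fat) in which transcripts of FOS, FOSB, JUN, JUNB, EGR1, IER3 and DUSP1 took the largest share of all transcripts. Molecules were counted by unique molecular identifiers (UMIs), tags that let amplified copies of a molecule be counted once. Among barcodes with at least 5000 UMIs, the top 5% of each library by the summed share of these 7 genes were taken, and they were set against the lowest 25% of the same library. This gave 479 of 9581 cells in library 1 and 580 of 11598 cells in library 2, together 1059 of 21179 cells, or of 25207 barcodes in the files. The cells set against them, called comparison cells here, numbered 2395 in library 1 and 2900 in library 2. All 4 genes used to name the cells (IER3, DUSP1, EGR1 and FOSB) are among the 7 that chose them, so their levels are no check of the name.

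The ADSCs came from fat of the chest of Bama miniature pigs that the labels call healthy, were grown for 3 generations over up to 14 days and were then frozen. The series title places the work in keloid prevention, keloids being scars that outgrow the wound, and in functional subgroups of these cells. Both libraries belong to the same untreated group, with no other genotype or agent in the labels. The labels do not say whether they came from separate animals or cultures, whether animals were pooled, or how long the cells were handled between culture and capture.

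Immediate early genes are transcribed within minutes of a stimulus because the proteins that switch them on are already in the cell. Growth factors, serum, stretch, cytokines and cell handling act through the MAP kinases, the serum response factor and NF-kB to start them. Their short-lived messages encode transcription factors (FOS, FOSB, JUN, JUNB, EGR1) that pass the signal to later genes, along with a brake on the MAP kinases (DUSP1) and a regulator of cell survival (IER3).

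The libraries differed in the level of the 7 genes, and so values are given for each. The median summed share was 3230 counts per 1000000 UMIs (CPM) in library 1 and 1476 CPM in library 2, and cells were therefore ranked only within their library. Early-gene-high cells had a median of 18733 UMIs in library 1 and 16429 in library 2, against 18688 and 20014 UMIs in comparison cells. Of 46 barcodes found in both libraries, none was chosen as early-gene-high in both, and 8 early-gene-high cells had a barcode that also occurs in the other library. The 10 stromal markers summed to 26102 and 29297 CPM in early-gene-high cells of libraries 1 and 2, against 25484 and 28712 CPM in comparison cells. Markers of endothelial, macrophage, lymphocyte, mural, epithelial, mesothelial, Schwann and erythroid cells summed to at most 92.9 CPM per list in early-gene-high cells. CDH5, KDR, CLDN5 and TIE1 of endothelium and CD163 and LYZ of macrophages were at 0 there in both libraries. In comparison cells, whose sums held more UMIs, no endothelial marker was at 0. KRT7, counted in the epithelial and mesothelial lists, had 82.5 and 65.2 CPM in early-gene-high cells, against 76.5 and 70.4 CPM in comparison cells. Of the endothelial list, ERG had 51.8 and 65.4 CPM in early-gene-high cells, against 45.9 and 69.0 CPM in comparison cells. Of the macrophage list, ITGAM had 24.1 and 0.0977 CPM, against 27.1 and 0.588 CPM.

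The share of the 7 genes varied without a gap between high and low cells. In library 1 the early-gene-high cells had a median of 6354 CPM and reached 12516, against a median of 1450 in comparison cells. In library 2 they had a median of 3028 CPM and reached 6022, against 856 in comparison cells. The lowest early-gene-high cell stood at 5791.5 CPM in library 1 and the highest cell left out at 5787.7, and in library 2 the same values were 2739.4 and 2739.1. Within 10% of the limit lay 653 cells (6.82%) of library 1 and 729 cells (6.29%) of library 2. The limit thus lies within a continuous range of cells.

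**Figure D1:**
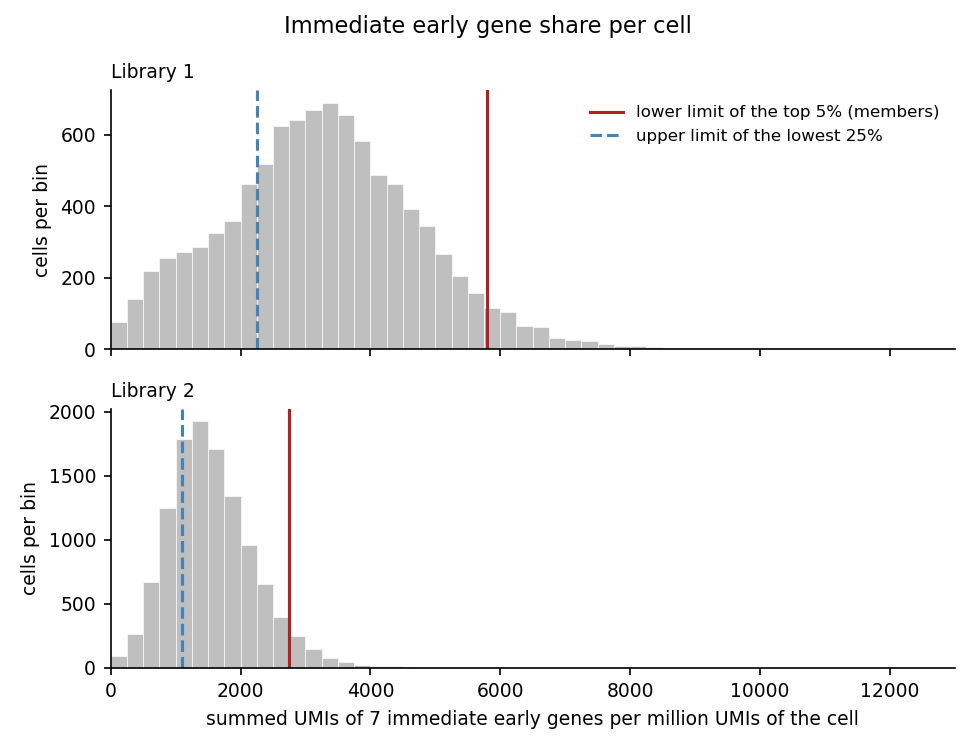
Distribution over cells of the summed share of the 7 rule genes (CPM, x axis) in library 1 and library 2, as numbers of cells (y axis), with the lower limit of the early-gene-high cells (solid line) and the upper limit of the comparison cells (dashed line) marked. Each library forms a continuous distribution, centred higher in library 1 (median 3230 CPM) than in library 2 (1476 CPM).

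The 7 genes that chose the cells are described here without a test. JUN, a subunit of the AP-1 transcription factor, was the most abundant, with 1845 and 1157 CPM in early-gene-high cells of libraries 1 and 2, against 306 and 205 CPM in comparison cells. DUSP1, a phosphatase that switches MAP kinases off, followed in library 1 at 1808 CPM, against 455 CPM in comparison cells. In library 2 DUSP1 reached 479 CPM in early-gene-high cells, against 178 CPM in comparison cells. The ranking of the genes thus differed between the libraries, with DUSP1 nearly level with JUN in library 1 and below JUNB in library 2.

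JUNB, the AP-1 subunit often induced with JUN, stood at 1226 and 592 CPM in early-gene-high cells of libraries 1 and 2, against 325 and 196 CPM in comparison cells. IER3, the regulator of cell survival, stood at 1006 and 163 CPM, against 190 and 35.1 CPM. Of the 7 genes IER3 differed most between the libraries. FOS, the partner of JUN in AP-1, stood at 405 and 263 CPM, against 59.2 and 83.6 CPM in comparison cells. EGR1, a zinc-finger factor driven by the serum response factor, stood at 170 and 276 CPM, against 38.0 and 51.1 CPM. FOSB, the close relative of FOS, stood at 155 and 188 CPM, against 33.1 and 52.9 CPM. EGR1 and FOSB were thus the only members of the rule with a higher level in the early-gene-high cells of library 2 than in those of library 1. A 3' count does not scale with transcript length, so levels are per molecule captured.

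Each gene also stood higher when it had no part in choosing the cells. With the cells picked by the other 6 genes, the fold between early-gene-high and comparison cells ran between 2.57 (DUSP1) and 5.16 (FOS) in library 1 and between 1.64 (DUSP1) and 2.65 (IER3) in library 2. With all 7 in the rule it ran between 3.77 (JUNB) and 6.83 (FOS) in library 1 and between 2.70 (DUSP1) and 5.66 (JUN) in library 2. Among all cells the 21 pairs of the 7 genes had Spearman correlations of 0.17 to 0.49 in library 1, with a median of 0.32, and of -0.01 to 0.21 in library 2, with a median of 0.14. The points of these correlations are cells of a single library that share its depth and its stock of free RNA.

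**Figure D2:**
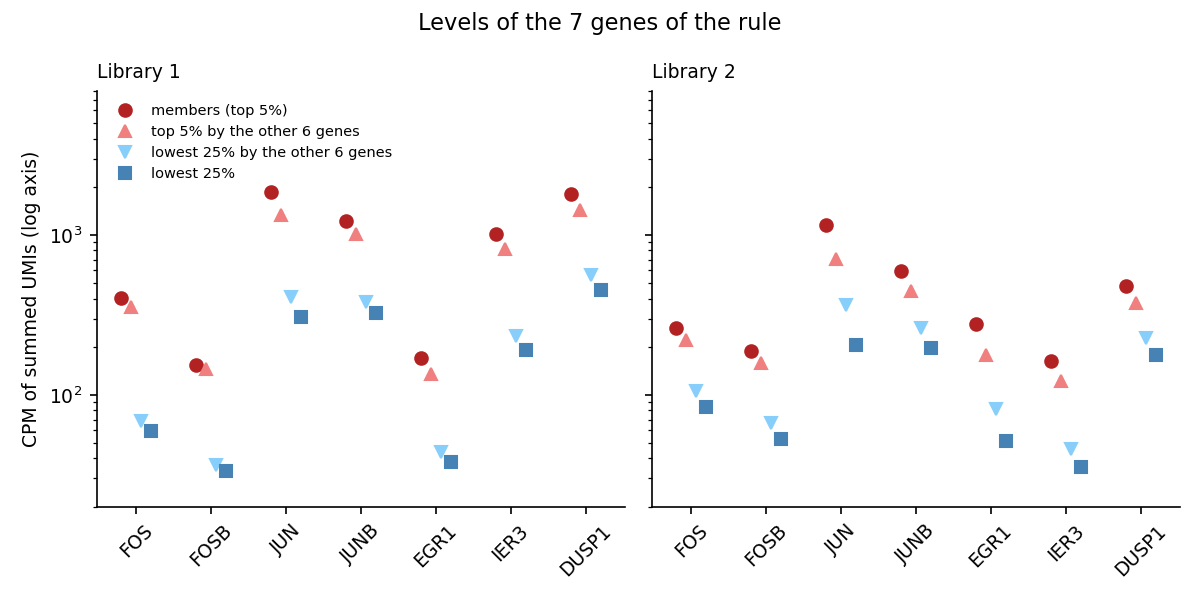
Level of each of the 7 rule genes (CPM, log axis) from summed UMIs of each library, in early-gene-high cells (circles, called members in the legend) and comparison cells (squares), and in the top 5% and lowest 25% chosen by the other 6 genes (triangles). In early-gene-high cells of libraries 1 and 2 JUN stands at 1845 and 1157 CPM and IER3 at 1006 and 163 CPM.

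JUN most often led among the 7 genes. It had the most UMIs in 215 of 479 cells (44.9%) in library 1, where DUSP1 led in 186 (38.8%), JUNB in 52 and IER3 in 25. In library 2 JUN led in 437 of 580 cells (75.3%), JUNB in 79, EGR1 in 28 and DUSP1 in 23. At least 4 of the 7 genes lay above the library's upper quartile in 441 early-gene-high cells (92.1%) of library 1 and in 463 (79.8%) of library 2. The rule summed these same values, so this describes the cells chosen and tests nothing.

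The 7 rule genes lie on 4 chromosomes of Sscrofa11.1 in RefSeq's gene table, which need not be the gene models used for counting. FOS lies at chr7:98449508-98451971 and IER3 on the same chromosome at chr7:23265560-23266905. FOSB lies at chr6:51836780-51844531 and JUN at chr6:153686425-153687635, JUNB at chr2:66214086-66219435 and EGR1 at chr2:140440829-140445302, and DUSP1 at chr16:51457924-51461095.

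Outside the rule, 19 of 26 inflammatory genes, 10 of 21 other early transcription factors and 14 of 30 early regulators of signalling, mRNA decay and survival were called higher in early-gene-high cells, and all 15 core cell cycle genes were called lower. UMIs were summed per library and class and compared with edgeR's quasi-likelihood test with the library as a block. Called genes had an adjusted p (Benjamini-Hochberg) under 0.05, a log2 fold change at or beyond 0.5 in size and a shared direction in both libraries. Of 15054 genes tested, 537 (3.57%) were called higher and 413 (2.74%) lower, and the median log2 fold change over all of them was 0.01. Without the library block edgeR called 0 genes in either direction, with 1322 genes at an unadjusted p under 0.05, while DESeq2 with the block called 481 higher and 250 lower. A further fit chose both classes again among cells with no core cycle gene detected after random thinning to equal UMIs per cell. These cells, called cells without a detected core cycle gene here, held 95 early-gene-high cells in library 1 and 127 in library 2. Their full counts were fitted, and edgeR called 227 higher and 50 lower of 11670 genes. Those counts still held UMIs of core cycle genes, of which 9 were tested and none was called. Of 20 genes of G1 and S phase tested there, 6 were called lower. The fit therefore cannot show what remains without cycling cells.

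**Figure D3:**
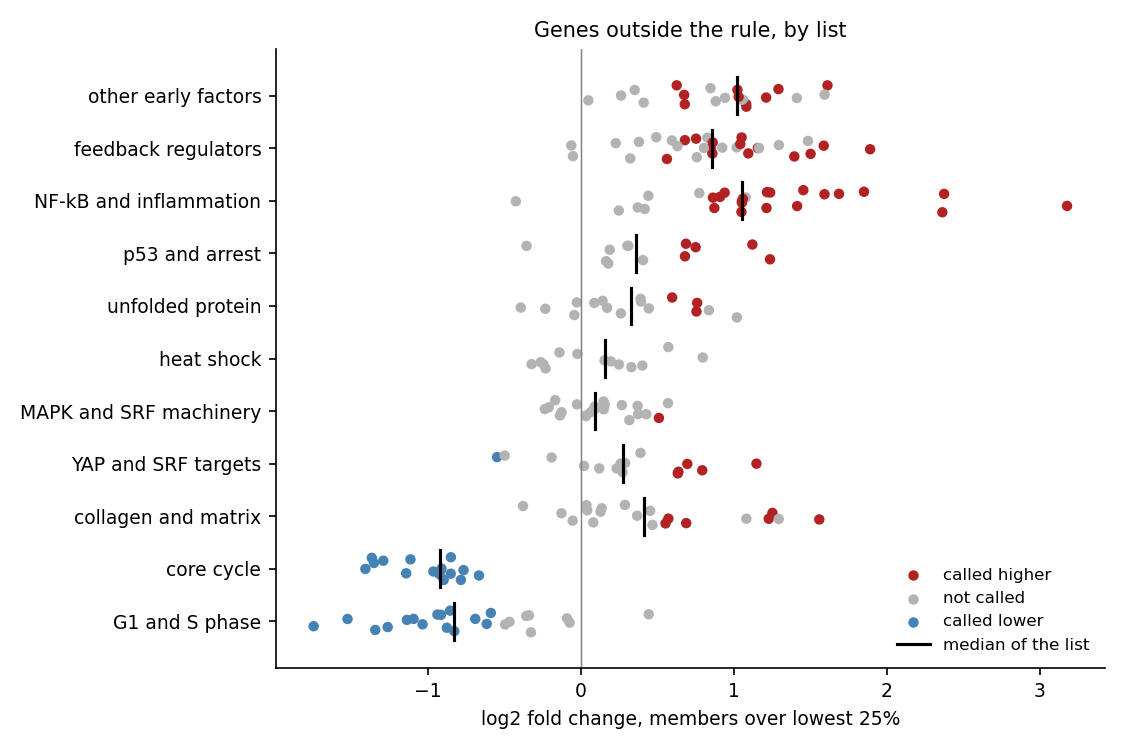
Log2 fold change of each tested member of 11 gene lists (x axis) in early-gene-high cells against comparison cells, fitted over both libraries, with genes called higher in red, called lower in blue and not called in grey, and list medians as bars. Members of the lists of inflammatory genes, early factors and feedback regulators lie mostly to the right of 0 (medians 1.06, 1.02 and 0.86) and all 15 core cycle genes lie to the left (median -0.92).

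Growth factor ligands and their receptors start the signal. Of 19 tested, 2 were called higher and 1 lower, with a median log2 fold change of 0.42. EGFR, the receptor of the EGF family, stood at 40.1 and 49.8 CPM in early-gene-high cells of libraries 1 and 2, against 20.4 and 31.8 CPM in comparison cells, a log2 fold change of 0.85 ± 0.12 (SE; edgeR adjusted p = 0.00459). FGFR1, a fibroblast growth factor receptor, rose by 0.61 ± 0.10 (edgeR adjusted p = 0.00963), and MET, the receptor of HGF, fell by 0.68 ± 0.16 (edgeR adjusted p = 0.0396). Among ligands, HBEGF had 31.1 and 0.977 CPM, against 9.83 and 1.44 CPM, so that it was higher in library 1 and not in library 2, and it was not called (edgeR adjusted p = 0.212). LIF, at 3.99 and 0.782 CPM against 0.570 and 0.474 CPM, and IGF1, at 1.44 and 4.30 CPM against 0.696 and 0.310 CPM, were rare and were not called either (edgeR adjusted p = 0.0647 and 0.104).

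The kinases and factors that relay the signal had a single call. Of 21 tested, MAPK8, which encodes the JUN kinase JNK1, was the only member called, and the list's median was 0.09. Over all 15054 genes tested 3.57% were called higher, so a single call is near that share. MAPK8 stood at 69.2 and 42.6 CPM, against 45.2 and 34.1 CPM, a log2 fold change of 0.51 ± 0.11 (edgeR adjusted p = 0.0252) at the edge of the limit of size. The call of MAPK8 was lost in 7 of the alternative settings besides the fit without the block.

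Of 21 other early transcription factors tested, 10 were called higher, 11 were not called and none was called lower, with a median log2 fold change of 1.02, and all 21 fitted values were above 0. ATF3, a stress-induced repressor and activator of the ATF family, stood at 526 and 153 CPM in early-gene-high cells of libraries 1 and 2, against 136 and 67.4 CPM in comparison cells. Its log2 fold change was 1.61 ± 0.19 (edgeR adjusted p = 0.0138). JUND, the JUN relative that is usually present in resting cells, had 313 and 187 CPM, against 128 and 108 CPM, and KLF4, a zinc-finger factor of growth arrest, had 159 and 145 CPM, against 64.9 and 83.7 CPM. For JUND and KLF4 both early-gene-high sums stood above both comparison sums (log2 fold change 1.08 ± 0.12, edgeR adjusted p = 0.00355 for each). MAFF and EGR3 rose by 1.29 ± 0.20 and 1.21 ± 0.23, and CSRNP1, KLF6, BHLHE40, KLF10 and FOSL2 were the other members called.

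Some classical early genes were not called. MYC, the growth regulator, had 223 CPM in early-gene-high cells of library 1 against 77.4 CPM in comparison cells, and 62.1 against 44.9 CPM in library 2, so that it was higher in both without a call (edgeR adjusted p = 0.101). KLF2 had 151 and 92.4 CPM, against 30.2 and 53.3 CPM (edgeR adjusted p = 0.143). NR4A2, an orphan nuclear receptor, had 232 against 74.97 CPM in library 1 but 58.4 against 61.3 CPM in library 2. FOSL1, a slower FOS relative, likewise had 63.5 against 40.2 CPM in library 1 and 29.1 against 34.6 CPM in library 2. For these 4 genes the log2 difference was larger in library 1, while EGR2, a relative of EGR1 that was not called either (edgeR adjusted p = 0.155), ran the other way with 0.60 in library 1 and 1.67 in library 2. The list's median log2 difference was 1.23 in library 1 and 0.52 in library 2.

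Of 30 early regulators of kinase signalling, mRNA decay and survival (feedback regulators) tested, 14 were called higher and none lower, with a median log2 fold change of 0.86. BTG2, which halts proliferation and promotes removal of poly(A) tails, had 52.9 and 35.9 CPM in early-gene-high cells of libraries 1 and 2, against 15.4 and 9.44 CPM in comparison cells (log2 fold change 1.89 ± 0.12, edgeR adjusted p = 0.000475). ZFP36, which encodes tristetraprolin and marks AU-rich messages, those of cytokines among them, for decay, had 210 and 79.6 CPM, against 70.0 and 27.9 CPM (1.59 ± 0.09, edgeR adjusted p = 0.000444). Both genes were higher in each library by nearly the same log2 amount. GADD45B, a stress-induced growth regulator, rose by 1.40 ± 0.18, the MAP kinase phosphatase DUSP6 by 0.86 ± 0.16 and the survival factor MCL1 by 0.86 ± 0.09.

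The other 16 members were not called. Among them were most of the list's inhibitors of kinase signalling (DUSP2, DUSP4, DUSP5, DUSP8, SPRY2, SPRY4, SPRED1, SPRED2 and ERRFI1), while DUSP6 and DUSP10 were called. PPP1R15A, which restores translation after stress, had 488 and 196 CPM, against 144 and 117 CPM, and missed the limit (edgeR adjusted p = 0.0805). SPRY2, an inhibitor of receptor signalling, had 39.0 against 13.3 CPM in library 1 and 9.18 against 10.8 CPM in library 2. RGS2, which turns off G proteins, had 96.9 against 37.8 CPM and 10.5 against 14.8 CPM in the same order. SPRY2 and RGS2 were thus higher in early-gene-high cells of library 1 and lower in those of library 2, and this difference between libraries was not tested.

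NF-kB targets, chemokines and cytokines had more genes called higher than any other list. Of 26 tested, 19 were called higher and none lower, with a median log2 fold change of 1.06 and medians of 1.099 in library 1 and 1.00 in library 2. TNFAIP3, the A20 enzyme that shuts NF-kB signalling off, had 79.7 and 63.8 CPM in early-gene-high cells, against 19.4 and 10.2 CPM in comparison cells (log2 fold change 2.38 ± 0.16, edgeR adjusted p = 0.0021). It was the largest rise among called genes at 10 CPM or more. NFKBIA, the inhibitor that holds NF-kB in the cytoplasm, had 173 and 87.8 CPM, against 70.0 and 24.9 CPM (1.59 ± 0.14, edgeR adjusted p = 0.0025). For both genes each early-gene-high sum stood above both comparison sums.

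Messages for secreted signals, and for an enzyme of prostaglandin synthesis, were also called higher. CXCL2, a chemokine for neutrophils, had 511 and 70.7 CPM in early-gene-high cells of libraries 1 and 2, against 97.9 and 14.8 CPM in comparison cells (log2 fold change 2.36 ± 0.09, edgeR adjusted p = 2.52e-05). Library 2 cells thus held less CXCL2 in every class, while the ratio was close in the 2 libraries (2.41 and 2.31 on the log2 scale). PTGS2, the prostaglandin synthase COX-2, had 99.7 and 34.2 CPM, against 24.2 and 11.7 CPM (1.85 ± 0.13, edgeR adjusted p = 0.00122). IL6, the cytokine interleukin-6, had 94.4 and 21.5 CPM, against 23.3 and 9.37 CPM (1.69 ± 0.21, edgeR adjusted p = 0.0128). CCL20, a chemokine for lymphocytes, was rare at 8.86 and 3.71 CPM, against 1.14 and 0.343 CPM (3.18 ± 0.29, edgeR adjusted p = 0.00189).

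Adhesion and pattern recognition genes of the same list were also called. VCAM1 and ICAM1, which bind leukocytes, rose by 1.42 ± 0.17 and 1.05 ± 0.17, and PTX3, a secreted pattern recognition protein, by 1.05 ± 0.09. CCL2, the most abundant chemokine of the list, had 1710 and 735 CPM, against 1081 and 668 CPM, and was not called (0.44 ± 0.13, edgeR adjusted p = 0.118). IL33, an alarmin kept in the nucleus, ran the other way with 283 and 272 CPM, against 365 and 403 CPM, a log2 fold change of -0.42 ± 0.08 that was under the limit of size (edgeR adjusted p = 0.0198). Among cells without a detected core cycle gene, 14 of 25 tested members of the list were called higher and none lower. CCL2 was among those 14 (log2 fold change 0.65, edgeR adjusted p = 0.00373).

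The 10 largest rises at 10 CPM or more held genes of other kinds besides TNFAIP3, CXCL2, BTG2 and PTGS2. PLXNA4, a receptor for semaphorin guidance cues, had 18.9 and 29.2 CPM in early-gene-high cells, against 4.30 and 7.07 CPM in comparison cells (log2 fold change 2.13 ± 0.14, edgeR adjusted p = 0.000564). HAS1, a hyaluronan synthase, had 28.9 and 4.89 CPM, against 5.89 and 2.40 CPM (1.84 ± 0.32, edgeR adjusted p = 0.0327), with 2.32 in library 1 and 1.07 in library 2. PLXNA4 had its higher level in library 2 and HAS1 in library 1. RRAD, a Ras-related protein that restrains calcium channels, had 30.6 and 6.25 CPM, against 7.07 and 2.45 CPM (1.85 ± 0.20, edgeR adjusted p = 0.00275). TXNIP, which binds thioredoxin and limits glucose uptake, had 23.8 and 25.5 CPM, against 10.3 and 4.54 CPM (1.88 ± 0.34, edgeR adjusted p = 0.0466), with 1.24 in library 1 and 2.53 in library 2. C2CD4B and C2H11orf96 completed the 10, with rises of 2.12 ± 0.15 and 1.80 ± 0.12. The call of TXNIP was lost in 5 alternative settings, that of HAS1 in 3 and that of RRAD in 1, besides the fit without the block.

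YAP and serum response factor targets were divided. Of 15 tested, 5 were called higher and 1 lower, with a median of 0.27. CYR61 (CCN1), a matricellular protein, had 1029 and 409 CPM, against 405 and 224 CPM (1.15 ± 0.12, edgeR adjusted p = 0.00395). CTGF (CCN2) rose by 0.63 ± 0.09 and THBS1 by 0.79 ± 0.09. TPM1 and AMOTL2 also rose, and FHL2 was the member called lower. Of 8 smooth muscle contractile genes MYLK alone was called (0.67 ± 0.13, edgeR adjusted p = 0.0229). ACTG2, CNN1 and CALD1 had log2 fold changes of 1.46, 1.18 and 0.49 without a call (edgeR adjusted p = 0.155, 0.118 and 0.144). The contractile list's median was 0.45, and -0.27 over 7 tested among cells without a detected core cycle gene.

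None of 13 heat shock genes was called by edgeR in the full comparison (7 at an unadjusted p under 0.05), and DESeq2 called 1. Among cells without a detected core cycle gene edgeR called 1 of 12 higher, HSPH1 (log2 fold change 0.67, edgeR adjusted p = 0.0127). With IER3 and DUSP1 left out of the score edgeR called 1 of 13 higher. HSP70.2 had 38.4 against 17.2 CPM in library 1 and 2.83 against 3.09 CPM in library 2. Of 16 genes of the unfolded protein and integrated stress responses DNAJB9, TRIB3 and SESN2 were called higher. HSPA5, the chaperone BiP, had 1429 and 303 CPM, against 555 and 260 CPM, and was not called (edgeR adjusted p = 0.245). Of 12 genes of p53 and growth arrest, 5 were called higher and none lower. GADD45A had 332 and 154 CPM, against 134 and 85.7 CPM (1.12 ± 0.12, edgeR adjusted p = 0.00275), and the cyclin kinase inhibitor CDKN1A (p21) had 102 and 85.3 CPM, against 61.2 and 57.8 CPM (0.69 ± 0.09, edgeR adjusted p = 0.00479). The pro-apoptotic genes BBC3 and PMAIP1 rose by 1.24 ± 0.16 and 0.75 ± 0.14, and IGFBP5 was the fifth called.

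Of 20 collagen and matrix genes 6 were called higher, with a median of 0.41. COL12A1, a fibril-associated collagen, had 467 and 179 CPM, against 170 and 94.96 CPM (1.23 ± 0.13, edgeR adjusted p = 0.00524). OMD, the proteoglycan osteomodulin, rose by 1.25 ± 0.12, ASPN by 1.56 ± 0.28, DCN by 0.69 ± 0.07, LOX, which crosslinks collagen, by 0.57 ± 0.09, and COL3A1 by 0.55 ± 0.11. The main fibrillar collagens COL1A1 and COL1A2 were not called. COL1A1 had 1240 and 1853 CPM, against 1061 and 1198 CPM, and COL1A2 had 2352 and 4007 CPM, against 1985 and 2679 CPM. COL5A1 had 307 and 170 CPM, against 110 and 112 CPM, and was not called either (1.08 ± 0.22, edgeR adjusted p = 0.0627). It was called higher among cells without a detected core cycle gene (1.05, edgeR adjusted p = 0.0155). Among cells without a detected core cycle gene the list held 2 higher and 1 lower of 19 tested and a median of 0.07. That set held fewer cells, and the cause of the lower median was not tested. The calls of ASPN and COL3A1 were each lost in 6 alternative settings.

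Of 14 matrix remodelling genes (proteases, their inhibitors, the urokinase receptor PLAUR and CEMIP), 5 were called higher and 1 lower. CEMIP, which degrades hyaluronan, had 129 and 346 CPM, against 61.3 and 115 CPM (1.38 ± 0.14, edgeR adjusted p = 0.00407). ADAMTS4 and ADAMTS5, which cut aggrecan, rose by 1.60 ± 0.28 and 0.95 ± 0.11, and the plasminogen activator PLAU by 0.85 ± 0.09. The ADAMTS4 difference was 2.02 on the log2 scale in library 1 and 0.87 in library 2. MMP1, interstitial collagenase, had 14.95 and 9.18 CPM, against 30.2 and 24.3 CPM, and fell by 1.16 ± 0.14 (edgeR adjusted p = 0.00332). MMP2, the most abundant metalloproteinase of the list, had 421 and 515 CPM, against 321 and 384 CPM, under the limit of size.

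Of 11 adipogenic genes 5 were called higher. CEBPD, an early adipogenic factor, had 1176 and 1127 CPM, against 770 and 680 CPM (0.71 ± 0.07, edgeR adjusted p = 0.0021). CEBPB rose by 1.51 ± 0.32, CFD, the adipokine adipsin, by 1.06 ± 0.13, APOE by 0.78 ± 0.13 and CEBPA by 0.84 ± 0.21. The CEBPB difference was 1.97 in library 1 and 0.78 in library 2, at 8.75 and 2.05 CPM, against 2.26 and 1.22 CPM. PPARG, the master regulator of fat cells, had 21.9 and 15.2 CPM, against 22.8 and 22.7 CPM, and was not called (edgeR adjusted p = 0.324). Of the other lists, 3 of 14 hypoxia and glycolysis genes (NDRG1, ADM, HK2) and 4 of 14 interferon response genes (MX1, USP18, OAS2, IFI6) were called higher. So were 2 of 12 cholesterol synthesis genes (INSIG1, CYP51), and none of the 3 lists held a gene called lower. Over all genes tested 3.57% were called higher. The list medians were -0.05, 0.43 and 0.34. Only 4 of the 14 hypoxia and glycolysis genes had a fitted value above 0, and DESeq2 called 1 of the 14 interferon genes. Calls near the limits were often lost in alternative settings: that of CEBPA in 9, of USP18 in 9 and of IFI6 in 10.

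Among cells without a core cycle gene detected after thinning, fewer list members passed the same edgeR test. Fewer cells entered that fit, and the cause of the difference was not tested. Of the 10 other early factors called higher in the full comparison 7 were called again, of the 14 feedback regulators 10, and of the 19 inflammatory genes 13. Of the 5 p53 and arrest genes, the 5 adipogenic genes and the 5 YAP and serum response factor targets, 1 each was called again. Over all genes called higher in the full comparison, 525 were tested in those cells and 183 were called again. The median log2 fold change over all tested members in those cells was 0.86 for the other early factors (1.02 in the full comparison), 0.86 for the feedback regulators (0.86) and 0.46 for the p53 and arrest genes (0.36). It was 0.23 for the YAP and serum response factor targets (0.27) and 0.36 for the adipogenic genes (0.59).

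Of the lists tested, both cell cycle lists held the most genes called lower. All 15 core cycle genes were called lower, with a median log2 fold change of -0.92, as were 15 of 23 genes of G1 and S phase, with a median of -0.83. CCNB1, the cyclin of mitosis, had 38.2 and 43.1 CPM in early-gene-high cells of libraries 1 and 2, against 119 and 104 CPM in comparison cells, and fell by 1.41 ± 0.12 (edgeR adjusted p = 0.00189). UBE2C, which drives exit of mitosis, had 112 and 92.9 CPM, against 278 and 257 CPM, and fell by 1.35 ± 0.09 (edgeR adjusted p = 0.000564). In both genes each early-gene-high sum lay below both comparison sums. CDT1, which licenses replication origins, had 5.32 and 4.30 CPM, against 17.2 and 15.9 CPM, and fell by 1.75 ± 0.16 (edgeR adjusted p = 0.00198).

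Of the 10 largest falls, 9 were cell cycle genes: CDT1, PIMREG, MIS18A, CCNB1, CENPA, CCNA2, UBE2C, PTTG1 and MCM2, with log2 fold changes of -1.75 to -1.34. CCND1, the cyclin D1 of G1 phase, had 126 and 131 CPM, against 257 and 309 CPM, and fell by 1.09 ± 0.09 (edgeR adjusted p = 0.00165). MKI67, the proliferation marker, had 6.98 and 14.4 CPM, against 17.6 and 24.2 CPM, and fell by 0.96 ± 0.17, while PCNA, the replication clamp, fell by 0.69 ± 0.09. CDK4 and CCND2 were not called. Without the 8% of cells with the most UMIs, 10 of the 15 core genes were called lower and none higher, with a median of -1.0002. With both classes chosen within each of 10 bins of UMIs per cell, 10 of the 15 core genes, with a median of -0.62, and 11 of the 23 genes of G1 and S phase, with a median of -0.47, were called lower.

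The remaining gene of the 10 was SST, the hormone somatostatin, which had 2.77 and 2.93 CPM, against 24.6 and 13.4 CPM, and fell by 2.64 ± 0.24 (edgeR adjusted p = 0.0021). Its UMIs were concentrated in few cells. In library 1 the 1% of cells with the most SST held 68.0% of its UMIs and in library 2 74.6%, so the sums rest on few cells of each class.

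The share of cycling cells was lower among early-gene-high cells. Cells were thinned to 5000 UMIs each at random, and a cell counted as cycling when at least 3 of the 15 core genes were detected. This held for 20.9% (exact 95% interval 17.3 to 24.8) of early-gene-high cells in library 1 and 23.8% (20.4 to 27.5) in library 2, against 46.9% (44.9 to 48.9) and 47.1% (45.3 to 49.0) of comparison cells. With all UMIs the shares were 47.0% and 44.7%, against 68.5% and 71.7%. No core gene was detected after thinning in 29.9% and 35.7% of early-gene-high cells, against 18.5% and 17.9% of comparison cells. The difference averaged -24.7 percentage points, the intervals cover counting error only, and the part of free RNA and doublets in these shares was not tested.

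**Figure D4:**
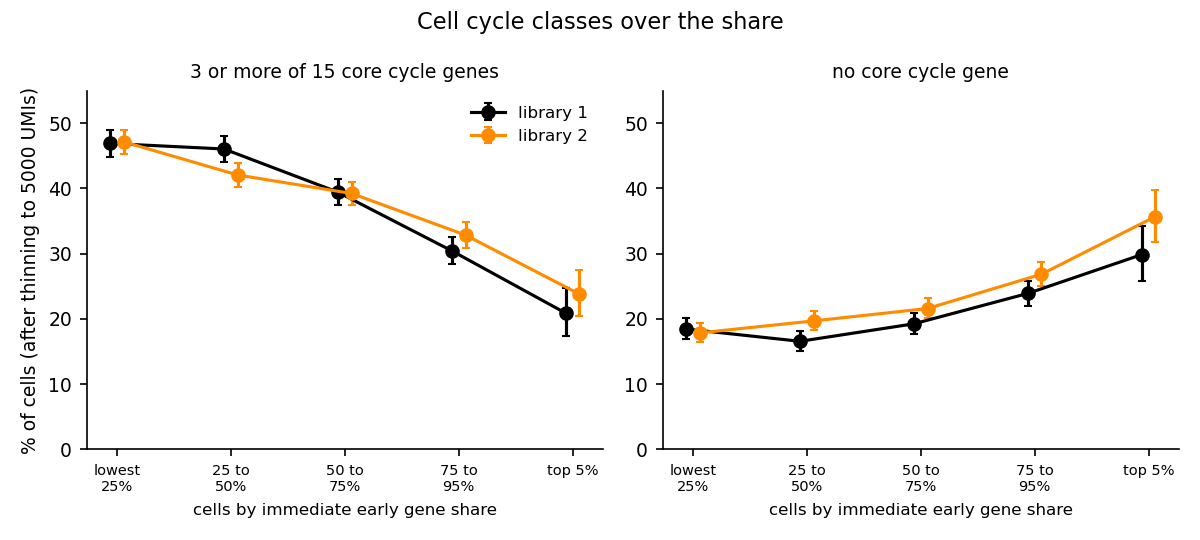
Share of cells with 3 or more core cycle genes (left) and with none (right), in percent after thinning to 5000 UMIs (y axis), in 5 steps of the rule score, ordered low to high, for each library with exact 95% binomial intervals. The cycling share falls at each step to 20.9% in library 1 and 23.8% in library 2 in early-gene-high cells, against 46.9% and 47.1% in the lowest 25%.

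Values between the 2 classes changed by degrees. Over the lowest 25%, the cells at 25 to 50%, 50 to 75% and 75 to 95% and the top 5%, the cycling share was 46.9%, 46.0%, 39.4%, 30.4% and 20.9% in library 1. In library 2 it was 47.1%, 42.0%, 39.2%, 32.8% and 23.8%. TNFAIP3 took 19.4, 38.9, 48.1, 62.8 and 79.7 CPM over the same steps in library 1 and 10.2, 18.2, 30.0, 45.1 and 63.8 CPM in library 2. CCNB1 took 119, 103, 85.9, 57.4 and 38.2 CPM in library 1 and 104, 80.7, 78.2, 59.0 and 43.1 CPM in library 2. Of the 10 largest rises 9 stood in strict order over the 5 steps in both libraries, and so did 9 of the 10 largest falls. HAS1 and SST, the exceptions, were in order in library 1 alone. The end steps chose these genes, so their order between the ends is a description.

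**Figure D5:**
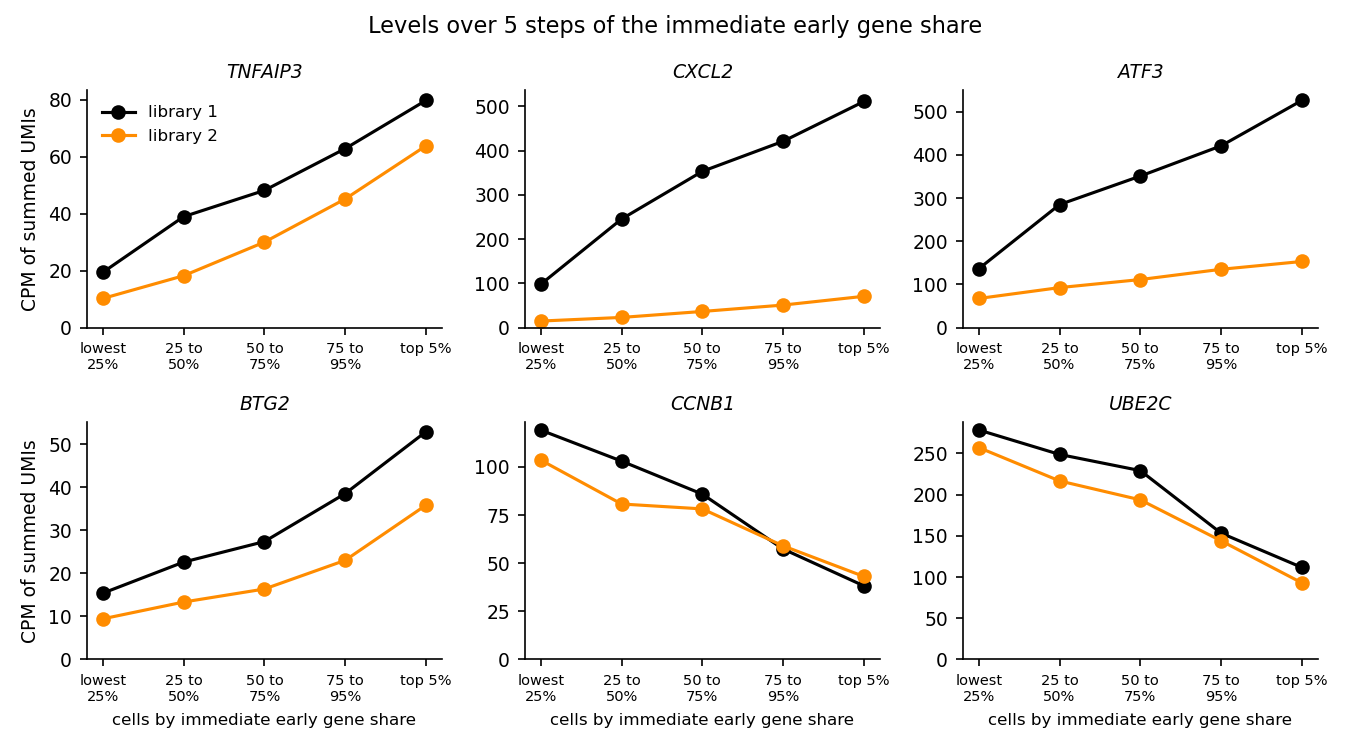
Level (CPM of summed UMIs, each axis from 0) of TNFAIP3, CXCL2, ATF3, BTG2, CCNB1 and UBE2C in 5 steps of the rule score from the lowest 25% to the early-gene-high cells, in each library. The 4 genes TNFAIP3, CXCL2, ATF3 and BTG2 climb at every step, and CCNB1 and UBE2C decline.

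Across all cells, the genes outside the rule that followed the score most closely were mostly early and NF-kB genes. This ranking used the same score and cells as the calls. Of 7640 genes at 10 CPM or more in both libraries, those without placeholder names were ranked. ATF3 had the highest Spearman correlation with the score by the lower of the 2 libraries, 0.55 in library 1 and 0.26 in library 2. NFKBIA (0.30 and 0.26), TNFAIP3 (0.25 and 0.25) and NFKBIZ (0.23 and 0.30) came next. C1S, a complement protease, PPP1R15A (0.57 and 0.22), JUND, CYR61, IER2 and CEBPD completed the 10. These are descriptions over 9581 and 11598 cells, each set from a single library and sharing its depth.

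Early-gene-high cells only in part coincided with cells high in related programmes. The top 5% of cells by the summed share of the 30 feedback regulators held 35.7% of early-gene-high cells in library 1 and 21.9% in library 2, and, the sets being of equal size, the same share of that set was early-gene-high. With the inflammatory list the shared part was 14.8% and 10.7%, with the other early factors 19.2% and 8.97%, and with the unfolded protein genes 19.6% and 6.90%. Abundant genes weigh most in such sums. CCL2 alone held 1710 and 735 of the 4191 and 2242 CPM of the inflammatory list in early-gene-high cells. Lists of other kinds had shared parts of like size in library 2. The collagen and matrix genes had 8.35% and 14.7%, and the matrix remodelling genes 9.81% and 10.9%. With the heat shock genes the shared part was 4.80% and 1.72%. With the core cycle genes it was 2.09% and 2.07%. With no relation between the rankings the shared part would be 5%.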

How the data were processed

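Single-cell RNA libraries of 2 ADSC samples (Chromium Single Cell 3' v3.1) were used, each deposited as unnormalized UMI counts, in whole numbers. Per the file headers the authors' counting tool was Cell Ranger 7.0.0. The submitters' processing notes give it as 7.00 and name the build Sscrofa11.1. Annotation, strand setting and cell calling were not given in the sources used here. Of 398 genes in 29 lists 374 were found by symbol, and NR4A1, MALAT1, HSPA1A and HAS2 were among those not analysed here. The 23 mitochondrial features hold no messenger RNA.

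Barcodes with at least 5000 UMIs were ranked within each library by the summed share of the 7 rule genes. The cells, lists and tests were chosen with earlier results of these data known. UMIs summed per library and class were tested with edgeR 4.0.16 in R 4.3.3 (TMM, filterByExpr, robust quasi-likelihood F test), tested on simulated data before. The rule genes were left out of the test. Both classes come from each library, so the library number pairs them by origin and was a block. With 1 residual degree of freedom per gene the spread rests largely on pooling over genes (median prior degrees of freedom 7.2), and p-values measure only how far the 2 libraries disagree, which may be technical. DESeq2 1.42.0, DESeq2's size factors, no low-count filter, no block and other choices of cells were alternatives. No doublet caller was run, and the 8% of cells with the most UMIs were left out as an alternative. CPM were computed from counts summed per class and library, which held 9.03e+06 to 6.12e+07 UMIs. Intervals of shares are exact (Clopper-Pearson) and of CPM exact Poisson, and cover counting error only.

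Named were the 7 rule genes, and the 10 largest rises and 10 largest falls among called genes. For these rises and falls, genes had 10 CPM or more on average and no placeholder name. Of each list, the 4 members with the largest change at 1 CPM or more were added. The 10 genes most like the score followed, again without placeholder names. Not every list member so named is described above: HES1, HERPUD1, ARC and CSF1R, none of them called, are among those left out. Values of another 37 list members were named after they were seen. Figures were drawn with matplotlib 3.10.9.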

Additional observations from a re-analysis of the deposited data

Results flagged for a closer look

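Barcodes under 5000 UMIs, which the comparisons left out, also held high shares of the 7 rule genes. In library 1, 170 of 2670 such barcodes (6.37%, exact 95% interval 5.47 to 7.36) stood at or above the limit of the early-gene-high cells. In library 2 it was 223 of 1358 (16.4%, 14.5 to 18.5). A count of 0 would have allowed up to 0.112% and 0.221% (3 barcodes). These barcodes had a median of 1399.5 and 1064.5 UMIs, so that a share rests on few UMIs each, and their summed share of the rule genes was 2945 and 1673 CPM, against 3275 and 1529 CPM over all cells of at least 5000 UMIs.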

How the results depend on the processing

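The main counts were 537 higher and 413 lower. The number higher was within 1.5 times of this in every setting but 2, and the number lower in every setting but 4. Among cells with no core cycle gene detected after thinning, edgeR called 227 higher and 50 lower. Of genes called in the main comparison, 525 and 340 were tested there, 183 and 35 were called and 520 and 322 kept their direction. The full counts of these cells, which were fitted, still held UMIs of core cycle genes. Fewer cells entered that fit. Against all other cells, in place of the lowest 25%, TNFAIP3 was higher by 1.18 and CXCL2 by 1.07 on the log2 scale, against 2.38 and 2.36, and the median of the other early factors was 0.53, against 1.02. Without the replicate block edgeR called 0 higher and 0 lower (1322 genes at an unadjusted p under 0.05); DESeq2 called 250 lower and edgeR without a low-count filter 633, over 22268 genes. The causes were not tested. CEBPA (-0.067), IFI6 (-0.0025) and MET (0.10) changed sign among cells with no core cycle gene detected after thinning. Of 135 named genes 88 lost their call without the block. Among cells with no core cycle gene detected after thinning 38 did (those 3 included, with no value for another 11). In each other setting between 0 and 19 did. A limit of at least 1000 genes and at most 15% mitochondrial UMIs removed no cell. Its unchanged counts and 0 lost calls were therefore fixed beforehand and test nothing. Leaving out a library left no residual degrees of freedom, so only its log2 values were compared: 6 genes moved beyond 1 SD without library 1 and 1 without library 2. That SD came from the same 2 library values, and a call needs a shared direction in both. The comparison therefore cannot show whether a gene depends on 1 library. The cycling difference of -24.7 percentage points became -29.9 with the top 2% of cells and -22.1 with the top 10%, and lay between -26.0 and -23.3 with either library alone. Chosen on a random part of the UMIs and read in the rest, an alternative added after seeing the data, the rule genes' mean log2 ratios were between 1.35 (DUSP1) and 2.17 (JUN), against 1.71 and 2.55. Depth limits the classes: ranked on counts thinned to 5000 UMIs, 63.5% and 55.2% of early-gene-high cells of libraries 1 and 2 were chosen again, and 382 genes were called higher and 280 lower.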

Other observations

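Of 15054 genes tested, 4964 had log2 differences of opposite sign in the 2 libraries. Opposite moves of at least 0.5 in both libraries were few among genes at 10 CPM or more. Of 8010 genes at 10 CPM or more, 11 were at least 0.5 higher on the log2 scale in early-gene-high cells of library 1 and at least 0.5 lower in those of library 2, and 1 showed the reverse.

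Counts of other cell types were low in early-gene-high cells as in comparison cells. The 8 endothelial markers summed to 69.0 and 85.6 CPM in early-gene-high cells of libraries 1 and 2, against 65.9 and 93.4 CPM in comparison cells, and the 8 macrophage markers to 28.6 and 1.76 CPM, against 30.1 and 2.07 CPM. EMCN, an endothelial sialomucin, had 3.77 and 4.20 CPM, against 8.69 and 9.88 CPM, and fell by 1.18 ± 0.18 (edgeR adjusted p = 0.00817). The other 2 endothelial markers tested, PECAM1 and ERG, had fitted values above 0 and were not called. Of 5 mural cell markers tested, ABCC9, a subunit of potassium channels, alone was called, with a rise of 0.79 ± 0.17 (edgeR adjusted p = 0.03). That call was lost in 3 alternative settings besides the fit without the block, and DESeq2 called 0 of the 5. CSPG4 was lower in both libraries, at 11.4 and 13.0 CPM against 15.7 and 18.2 CPM, without a call. RGS5 was at 0 in early-gene-high cells of both libraries.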
